A study of Mus musculus with 2 samples.

Results

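The cycling progenitors described here come from cultures of mouse ventricular wall in which progenitors turn into ependymal cells, the ciliated lining of the brain ventricles. They were taken as every cell that the submitters' cell metadata names CyclingProgenitors, whatever its cell cycle class, which gave 759 of 16401 cells. Replicate 1 held 520 of them and replicate 2 held 239. They are set against the populations named progenitors I (2374 and 1218 cells) and progenitors II (1765 and 747 cells), which come from the same libraries.

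Gene expression was measured by droplet single-cell RNA sequencing with the 10x Genomics 3′ v3 kit in 2 primary cultures of lateral ventricular wall from newborn mice (P0 to P2). The mice were C57BL/6N for replicate 1. For replicate 2 they were C57BL/6J. Both cultures grew in serum for 4 to 5 days to confluence, were shaken overnight, which removes neurons and oligodendrocytes among others, and were then kept without serum for 2 days. Cells were freed with trypsin and labelled on their surface proteins before loading. There was no other treatment and no second group, so each comparison is between cell populations within the 2 libraries. The sources used here do not give the number of animals per culture or whether the cultures were made on separate days. The main tests below take out the difference that all cell groups share between the 2 libraries. Their p-values measure the spread of cell groups that remains within these 2 cultures, which may be partly technical.

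A dividing cell passes through G1, copies its DNA in S phase, and after G2 separates its chromosomes in M phase. The genes for DNA replication are transcribed from late G1 under E2F factors. Those for mitosis follow later, when the MuvB core complex with MYBL2 and FOXM1 replaces the DREAM repressor. Ependymal cells arise from radial glia, and before they grow many cilia most leave the cycle. Radial glia and neural stem cells of the ventricular wall share much of their gene expression with astrocytes, and can be quiescent or activated into division.

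The name was checked against 3 markers. Mki67, whose protein Ki-67 coats mitotic chromosomes, had 536 and 730.5 CPM in cycling progenitors, 1.18 and 2.41 in progenitors I and 2.64 and 3.02 in progenitors II (CPM, the summed unique molecular identifiers, UMIs, scaled to a fixed total per library and population). Ccna2, the cyclin that drives S phase and G2, had 183 and 213 CPM in cycling progenitors, 0.501 and 0.616 in progenitors I and 0.782 and 1.23 in progenitors II. Fbxo5, whose product Emi1 restrains the anaphase-promoting complex, had 88.4 and 79.5 CPM in cycling progenitors, 1.39 and 1.01 in progenitors I and 1.22 and 1.04 in progenitors II. In each marker both cycling libraries stood far above all 4 of the others. With each cell thinned to 5000 UMIs, a Mki67 UMI was found in 65.4% and 69.5% of cycling progenitors (81.3% and 82.8% unthinned) and in at most 1.49% of progenitors I or II. In the population named MCCs, multiciliated cells that have left the cycle, the share at the same depth was 0.596% and 0.383%. Progenitors I, at 0.397% and 0.908%, were near this share, and progenitors II, at 1.45% and 1.49%, a little above it. Whether these few UMIs come from free RNA was not tested. At the same depth 2 or more of the 3 markers were found in 50.2% and 53.2% of cycling progenitors. In the smaller population named OPCs (oligodendrocyte precursors) these shares were 50.7% and 73.5%. Neuroblasts had 50% and 60.9%, and microglia 15.7% and 35.9%. The 3 markers are thus not particular to cycling progenitors in these cultures. The populations presumably got their names from these same expression values, so that the cell cycle calls below describe the population and are no independent evidence that it divides.

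Cycling progenitors made up 4.32% of the cells in replicate 1 (95% exact binomial interval 3.97 to 4.70) and 5.47% in replicate 2 (4.81 to 6.18). Among the 3 progenitor populations their share was 11.2% (10.3 to 12.1) and 10.8% (9.58 to 12.2), where the intervals of the libraries overlap. These intervals cover counting error only. Of all cells that the metadata places in class S, S/G2 or G2/M, cycling progenitors held 16.5% and 17.5%, while the populations named deuterosomal or early MCCs, which are amplifying their centrioles, held 69.4% and 67.5%. The S, S/G2 and G2/M classes were therefore mostly filled by cells of the multiciliated lineage, and progenitors I and II held 1 such cell.

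Within the population the class S/G2 was the most common in both libraries, with 206 cells (39.6%) and 97 cells (40.6%). Class S held 124 and 48 cells, G1 110 and 49, G0 63 and 37, and G2/M 17 and 8. The sources used here do not say how these classes were assigned. The share of a cell's UMIs that fell on a list of 48 G1/S and S phase genes, and on a list of 62 G2 and M phase genes, shows what they hold. In class G1 the median cell gave 0.830% and 0.823% of its UMIs to the S phase list, close to the 1.10% and 0.999% of class S. In class G0 these shares were 0.0958% and 0.108%, near the 0.0722% and 0.0713% of progenitors I. In class S/G2 the G2 and M list took 2.89% and 2.98%, against 0.667% and 0.838% in class G2/M. Of all cycling progenitors, 90.2% and 87.9% lay above the 99th percentile of progenitors I and II of their own library for both lists summed. Of the class G0 cells, 28.6% and 24.3% did. For the 2 lists summed, the cells named cycling progenitors in class G0 were thus mostly within the range of the other progenitors. Those in class G1 were not. Single genes could differ from this: the mitotic cyclin Ccnb2 had 98.5 and 85.5 CPM in class G0, against 21.1 and 26.2 in class G1.

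**Figure D1:**
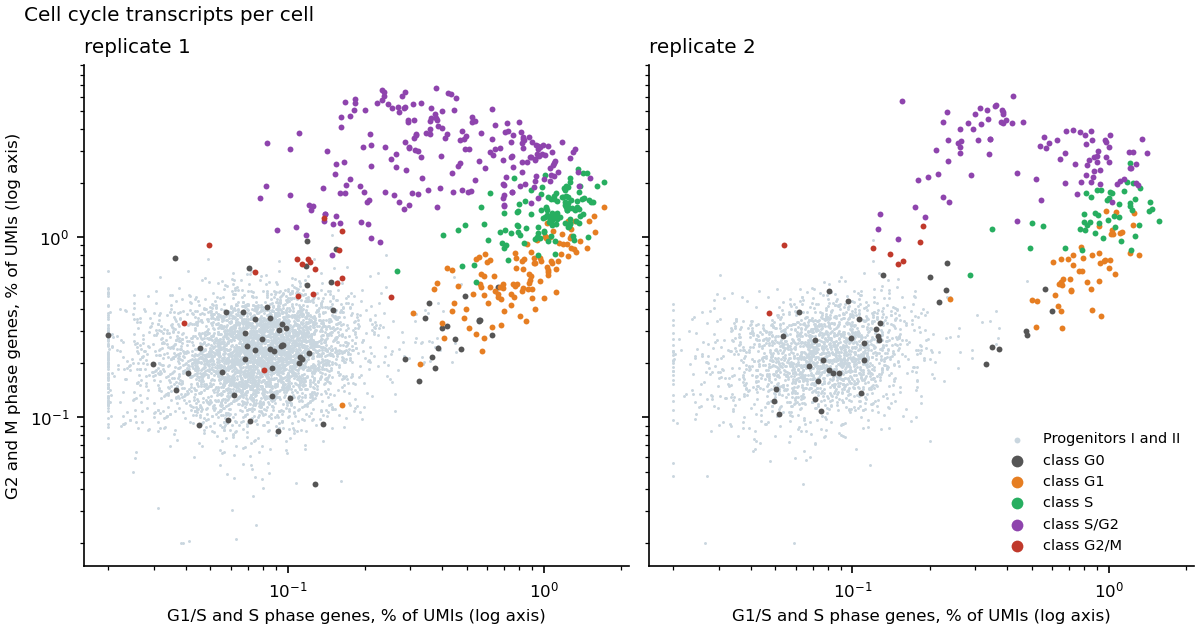
Share of each cell's UMIs on the G1/S and S phase list (x axis, %, log scale) and on the G2 and M phase list (y axis, %, log scale), with one panel per library and values under 0.02% drawn at 0.02%. Grey points are progenitors I and II and coloured points are cycling progenitors by class: class G1 lies to the right of the grey cloud, class S/G2 above it, and most class G0 cells inside it.

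Cycling progenitors were deeper than the others. They had a median of 16952 and 20007 UMIs per cell, 1.62 and 1.52 times the median of progenitors I and 1.66 and 1.61 times that of progenitors II. At 5000 UMIs per cell the median number of genes was 2379.5 and 2371, against 2249 and 2285 in progenitors I and 2338 and 2357.5 in progenitors II. In summed counts the population gave 9423426 and 4870782 UMIs. Only 13 cell barcodes occurred in both libraries, and 1 of them belonged to a cycling progenitor.

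Markers of other cell types were looked for in the same cells. Each of the 6 microglia markers was at or under 1.27 CPM, and their summed level was 4.78 and 1.85 CPM against 2.97 to 9.30 CPM in progenitors I and II. The 6 oligodendrocyte precursor markers summed to 136 and 229.7 CPM, against 131 and 186 in progenitors I and 51.5 and 76.9 in progenitors II. Of these 6, 4 were higher against the mean of progenitors I and II, 2 against progenitors I alone and 4 against progenitors II alone. At least 2 of the 6 were found in 6.37% and 9.87% of thinned cycling progenitors and in 0.483% to 5.78% of the others. Unthinned, these shares were 21.2% and 31.0%, against 9.35% and 16.1% of progenitors I and 3.85% and 5.22% of progenitors II. Gpr17, which marks committed precursors, was at 0.849 and 0 CPM and Sox10 at 1.06 and 0.821. The 6 neuroblast markers summed to 79.1 and 199 CPM, against 58.2 and 164 and 54.9 and 147, and the 6 multiciliated cell markers to 253 and 209, between those of progenitors I (184 and 222) and progenitors II (351 and 412) in replicate 1 and below both in replicate 2. In an alternative added after seeing the data the cells with 2 or more precursor markers (unthinned) were left out, 110 and 74 of the cycling progenitors. It tells nothing of the 6 markers themselves, by which the cells were chosen. What part the other marker lists play in a result was not tested.

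Counts were summed per population and library and compared with edgeR's quasi-likelihood test, with the library as a block and Benjamini-Hochberg adjustment over all genes at 0.05. Against the mean of progenitors I and II, 2756 of 15877 genes were higher in cycling progenitors (17.4%) and 3379 were lower (21.3%), together 38.6%. The median over all genes was a log2 fold change of −0.10. Without the library as a block 1662 were higher and 1160 lower, and in cells thinned to 5000 UMIs 2024 were lower. Against progenitors I alone 2410 genes were higher (15.2%) and 2720 lower (17.1%), and against progenitors II alone 2688 were higher (16.9%) and 3324 lower (20.9%), together 32.3% and 37.9%. With so many genes called, a gene list is read below against these shares and this median. The gene lists are a selection of textbook members, and a list's count of called members carries no test of its own. The share of all genes whose values do not overlap between the groups was not counted. Statements below that values do not overlap therefore only describe the genes named. A gene that did not pass did not exceed the spread shared by the 13 cell groups of the fit. With only the 3 progenitor populations in the fit, 12 of 21 named genes that did not pass did so. Log2 fold changes below are given with their standard error and are against the mean of progenitors I and II unless another comparison is named.

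All 48 members of the G1/S and S phase list were higher in cycling progenitors, with a median log2 fold change of 3.28. Mcm2, a subunit of the replicative helicase, had 63.7 and 84.0 CPM in cycling progenitors, 7.80 and 9.35 in progenitors I and 6.50 and 8.97 in progenitors II. Its log2 fold change was 3.12 ± 0.13 (adjusted p = 1.1e-16). Cdc6, which loads that helicase onto origins, had 21.5 and 21.4 CPM in cycling progenitors and 0.0944 to 0.250 CPM in the other 4 sums, with a log2 fold change of 6.48 ± 0.32. Tk1, the S phase thymidine kinase, differed by 7.78 ± 0.24 and Pcna, the sliding clamp of the replication fork, by 2.71 ± 0.20. Pcna was well detected outside the cycle too, with 515 and 503 CPM in cycling progenitors, 74.5 and 70.0 in progenitors I and 80.0 and 74.7 in progenitors II. Neither group of libraries overlapped the other in any of these 4 genes, a trait that was not counted over all genes.

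Of the 62 G2 and M phase genes, 60 were higher, 1 was lower and 1 did not pass, with a median of 6.03. The leading genes of the whole comparison came mostly from this list. Hmmr, a spindle-associated hyaluronan receptor, had 261 and 309.8 CPM in cycling progenitors, 0.250 and 0.112 in progenitors I and 0.538 and 0.283 in progenitors II, a log2 fold change of 9.76 ± 0.29 (adjusted p = 3.3e-14). Ube2c, the ubiquitin-conjugating enzyme of the anaphase-promoting complex, had 676 and 579.6 CPM against 1.06 to 2.25 CPM in the others (8.40 ± 0.27). Plk1, the mitotic kinase, differed by 7.84 ± 0.17, Ccnb2 by 7.51 ± 0.17, Cdca3 by 7.65 ± 0.17 and Pbk by 7.56 ± 0.14. Pclaf, which binds PCNA, had 641 and 660.3 CPM against 1.79 to 2.35 CPM (8.26 ± 0.38). With Mki67 (8.07 ± 0.35), these were the 8 highest genes whose mean log2 CPM was 5 or more. Every one of them was above all progenitor sums in both libraries, which adds no support, since they were picked as the highest of this comparison.

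The single lower member was Pttg1, which encodes securin, the inhibitor that holds separase until anaphase. It had 80.4 and 54.6 CPM in cycling progenitors, 119 and 82.9 in progenitors I and 145 and 113 in progenitors II, a log2 fold change of −0.81 ± 0.14 (adjusted p = 1.2e-04). Its cycling values were below those of the other populations of the same library, although the value of cycling progenitors in replicate 1 was close to that of progenitors I in replicate 2. Ccnb1, the B cyclin that the same complex destroys at anaphase, had 181 and 216 CPM in cycling progenitors, 2.04 and 2.02 in progenitors I and 2.64 and 2.36 in progenitors II. Without the library as a block Pttg1 did not pass the test.

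**Figure D2:**
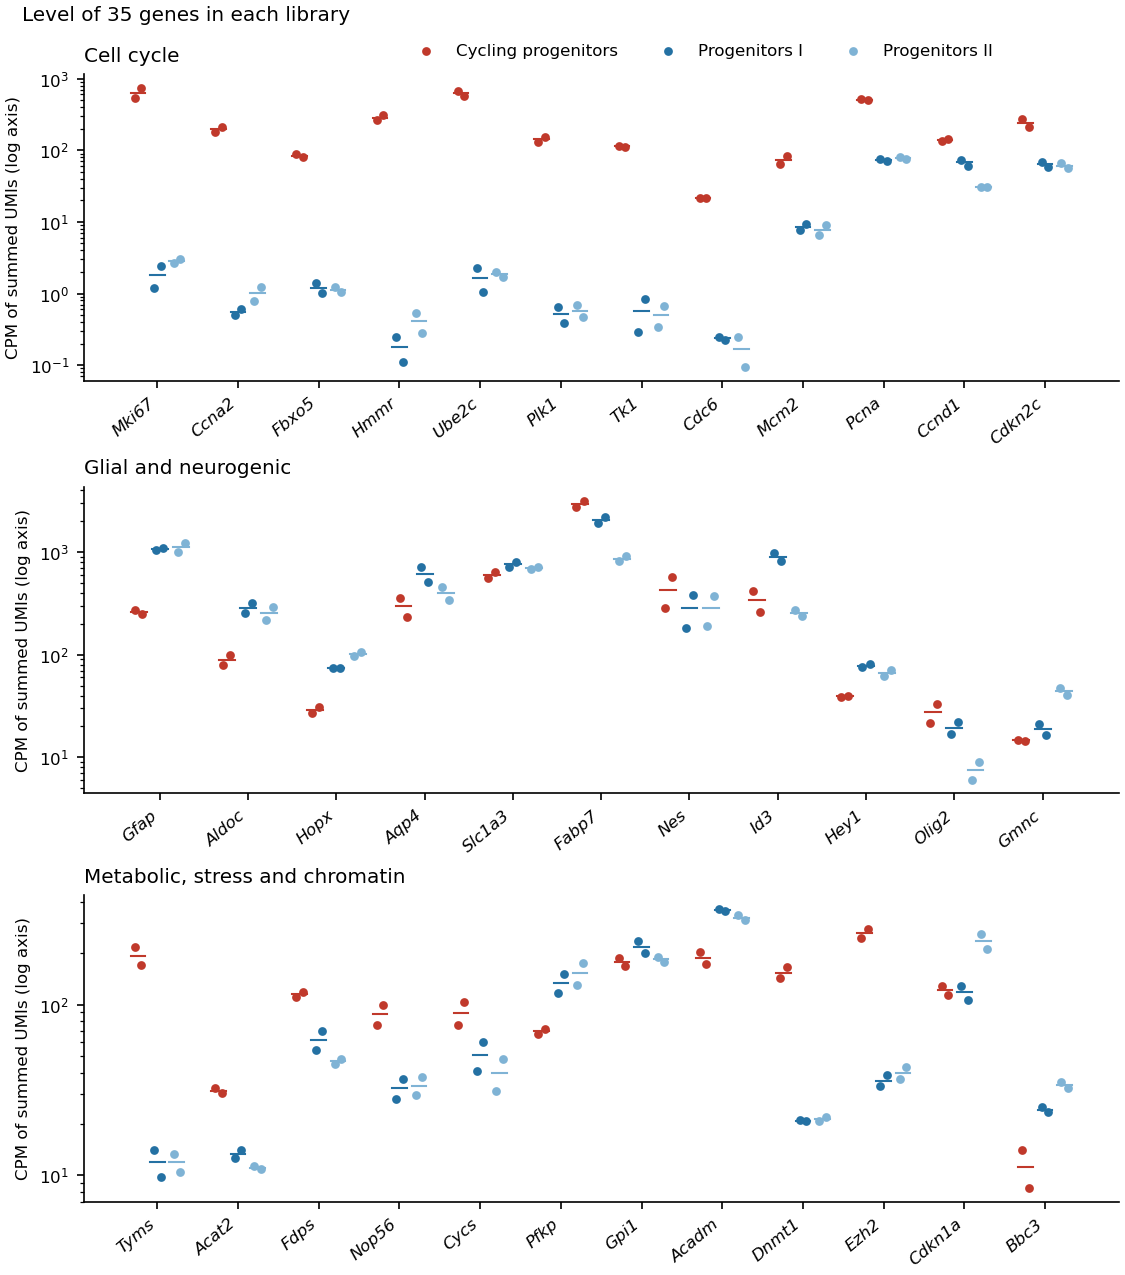
Level of 35 genes in CPM of summed UMIs (log axis) in cycling progenitors (red), progenitors I (dark blue) and progenitors II (light blue). Each point is 1 library and each short line the mean of the 2; the cell cycle genes are far apart (Hmmr 261 and 309.8 CPM against 0.112 to 0.538 CPM), and the glial and metabolic genes much closer together in either direction.

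The promoters of the 2 cell cycle lists hold different sequence motifs, and 6 of them are printed as examples. RefSeq promoter windows of GRCm38.p6, from 250 bases before to 50 after a start site, were found for 34 of the 48 S phase genes and 52 of the 62 G2 and M genes. Exact matches on either strand were counted for the CHR element TTTGAA, to which the MuvB complex binds, for CCAAT, the motif of NF-Y, and for the E2F motifs TTTCCCGC, TTTCGCGC, TTTGCCGC and TTTGGCGC. No motif holds another, although matches can overlap at their ends. The 6 are 2 of the population's markers, 2 G2 and M genes and 2 S phase genes, chosen after the matches were seen. Hmmr and Ube2c were taken from the G2 and M genes with a CHR match in the stretch printed. Hells and Mcm6 were taken from the S phase genes with an E2F match there. For these genes the choice fixed that such a match is shown. Each stretch runs from 120 bases before to 20 after the start site in the direction of the gene, with motif matches in capitals.
Mki67 (chr7:135716360-135716499, minus strand): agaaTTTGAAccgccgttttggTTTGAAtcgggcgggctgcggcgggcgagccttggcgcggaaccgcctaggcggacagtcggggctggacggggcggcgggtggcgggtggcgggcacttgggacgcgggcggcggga
Fbxo5 (chr10:5805446-5805585, minus strand): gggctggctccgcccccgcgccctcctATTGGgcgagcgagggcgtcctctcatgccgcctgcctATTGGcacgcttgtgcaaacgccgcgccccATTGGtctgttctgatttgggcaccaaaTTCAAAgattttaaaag
Hmmr (chr11:40733418-40733557, minus strand): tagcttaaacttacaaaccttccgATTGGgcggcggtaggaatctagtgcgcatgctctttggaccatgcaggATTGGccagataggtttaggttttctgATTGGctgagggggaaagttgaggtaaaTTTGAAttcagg
Ube2c (chr2:164769809-164769948, plus strand): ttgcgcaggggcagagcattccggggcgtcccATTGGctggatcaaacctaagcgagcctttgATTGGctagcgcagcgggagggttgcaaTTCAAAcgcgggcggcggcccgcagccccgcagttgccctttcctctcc
Hells (chr19:38930870-38931009, plus strand): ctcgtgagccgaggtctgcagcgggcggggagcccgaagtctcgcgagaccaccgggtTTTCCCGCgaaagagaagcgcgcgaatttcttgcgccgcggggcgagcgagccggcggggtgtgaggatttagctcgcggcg
Mcm6 (chr1:128359686-128359825, minus strand): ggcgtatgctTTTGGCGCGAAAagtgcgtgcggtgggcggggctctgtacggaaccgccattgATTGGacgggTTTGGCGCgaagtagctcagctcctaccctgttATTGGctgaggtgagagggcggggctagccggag
In the G2 and M stretches the capitals are TTTGAA or its complement TTCAAA and, except for Mki67, ATTGG, the complement of CCAAT. Mki67 holds 2 CHR matches here and its CCAAT matches lie further upstream in the window. Hells, a chromatin remodeller, holds 1 E2F match and neither of the other motifs. Mcm6, a helicase subunit, holds 3 E2F matches, of which 2 overlap on opposite strands, and 2 CCAAT matches.

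Over the lists, CHR matches were found in 37 of 52 G2 and M promoters (71.2%) and in 5 of 34 S phase promoters (14.7%), against 14.4% of the 11895 promoters of genes tested. CCAAT was present in 78.8% and 64.7%, against 42.8%. E2F matches were found in 3 of 52 G2 and M promoters (5.77%) and in 14 of 34 S phase promoters (41.2%), against 4.48%. The chromatin list had 40.6% with CHR and 25.0% with E2F, and the astroglial list, at 17.1% and 5.71%, was near the background. Many members of these lists are known targets of these factors, so the shares describe the lists and not binding in these cells.

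**Figure D3:**
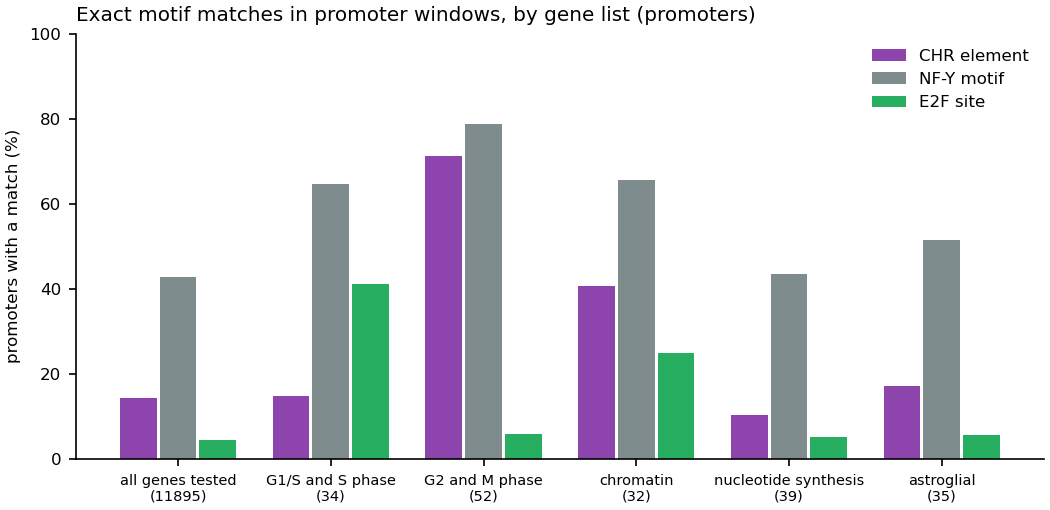
Share of promoter windows (y axis, %) with at least 1 exact match of the CHR element (purple), the NF-Y motif (grey) or an E2F motif (green), for all genes tested and 5 gene lists, with the number of promoters in brackets. The CHR bar is tallest for G2 and M genes (71.2%) and the E2F bar for S phase genes (41.2%).

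Of 20 cyclins, cyclin-dependent kinases and inhibitors outside those lists, 10 were higher and 1 lower. The E cyclins, which start S phase, were among the highest: Ccne2 had 66.4 and 65.3 CPM in cycling progenitors, 1.11 and 1.34 in progenitors I and 0.831 and 1.51 in progenitors II (5.78 ± 0.19), and Ccne1 differed by 3.85 ± 0.19. Ccnd1, the D cyclin that relays growth signals to the cycle, had 135 and 146 CPM in cycling progenitors, 74.1 and 61.0 in progenitors I and 31.1 and 30.5 in progenitors II, with a log2 fold change of 1.56 ± 0.31 (adjusted p = 0.0013). Its levels followed the order cycling progenitors, progenitors I, progenitors II in both libraries. Against progenitors I alone the difference of 0.95 ± 0.35 did not pass (adjusted p = 0.0556), and against progenitors II it was 2.17 ± 0.38 (adjusted p = 6.0e-04). Ccnd2, the other D cyclin of neural progenitors, had 220.4 and 304 CPM in cycling progenitors, 252 and 267 in progenitors I and 155 and 184 in progenitors II and did not pass (0.25 ± 0.16).

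Inhibitors of the cycle did not move as a group. Cdkn2b, the p15 inhibitor, passed as lower at −0.61, with −0.37 in replicate 1 alone and −0.88 in replicate 2 alone. Cdkn1c did not pass. Cdkn2c, the p18 inhibitor of CDK4 and CDK6, was higher, with 269 and 208 CPM in cycling progenitors, 68.2 and 58.6 in progenitors I and 65.3 and 56.0 in progenitors II and a log2 fold change of 1.88 ± 0.10 (adjusted p = 9.3e-15). Within the cycling progenitors it rose from class G0 to class S/G2: 47.2 and 40.8 CPM in class G0, 96.7 and 64.9 in G1, 194 and 155 in S and 449.8 and 343 in S/G2. Class G2/M, with under 20 cells in each library, was left out of such class levels. Cdkn1b, the p27 inhibitor, had 159.9 and 188 CPM in cycling progenitors, 158 and 212 in progenitors I and 183 and 223 in progenitors II and did not pass (−0.21 ± 0.12, adjusted p = 0.189). Cdkn1a, the p21 inhibitor, had 129 and 114 CPM in cycling progenitors, 129 and 107 in progenitors I and 259 and 210.4 in progenitors II. The values of cycling progenitors overlapped those of progenitors I (−0.06 ± 0.23, adjusted p = 0.862), and differed from progenitors II by −0.97 ± 0.23 (adjusted p = 0.00345).

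Among 21 E2F, RB and DREAM factors, 14 were higher and 1 lower. Foxm1, which with MYBL2 activates the mitotic genes, had 34.9 and 39.2 CPM in cycling progenitors, 1.32 and 0.952 in progenitors I and 1.37 and 0.566 in progenitors II (4.95 ± 0.19). E2f1, an activator of S phase genes, differed by 2.51 ± 0.15 and E2f8, a repressor that ends that wave, by 6.09 ± 0.25. The lower member was Rbl2, the p130 pocket protein of the DREAM complex in resting cells, with 24.6 and 18.9 CPM in cycling progenitors, 33.5 and 26.4 in progenitors I and 36.4 and 31.7 in progenitors II (−0.59 ± 0.13, adjusted p = 8.0e-04). Myb, which the multiciliated lineage uses, had 27.3 and 18.1 CPM in cycling progenitors, 20.1 and 14.9 in progenitors I and 44.3 and 44.2 in progenitors II, and differed from progenitors II by −0.93 ± 0.30 (adjusted p = 0.0226) but did not pass against both (−0.31 ± 0.27). Of 17 replication-dependent histone genes 12 were higher, such as Hist1h3c, which had 5.84 and 5.95 CPM against 0 to 0.0944 CPM. Their messenger RNAs largely lack a poly(A) tail, which the 3′ kit primes on, so these levels are a part of the total.

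**Figure D4:**
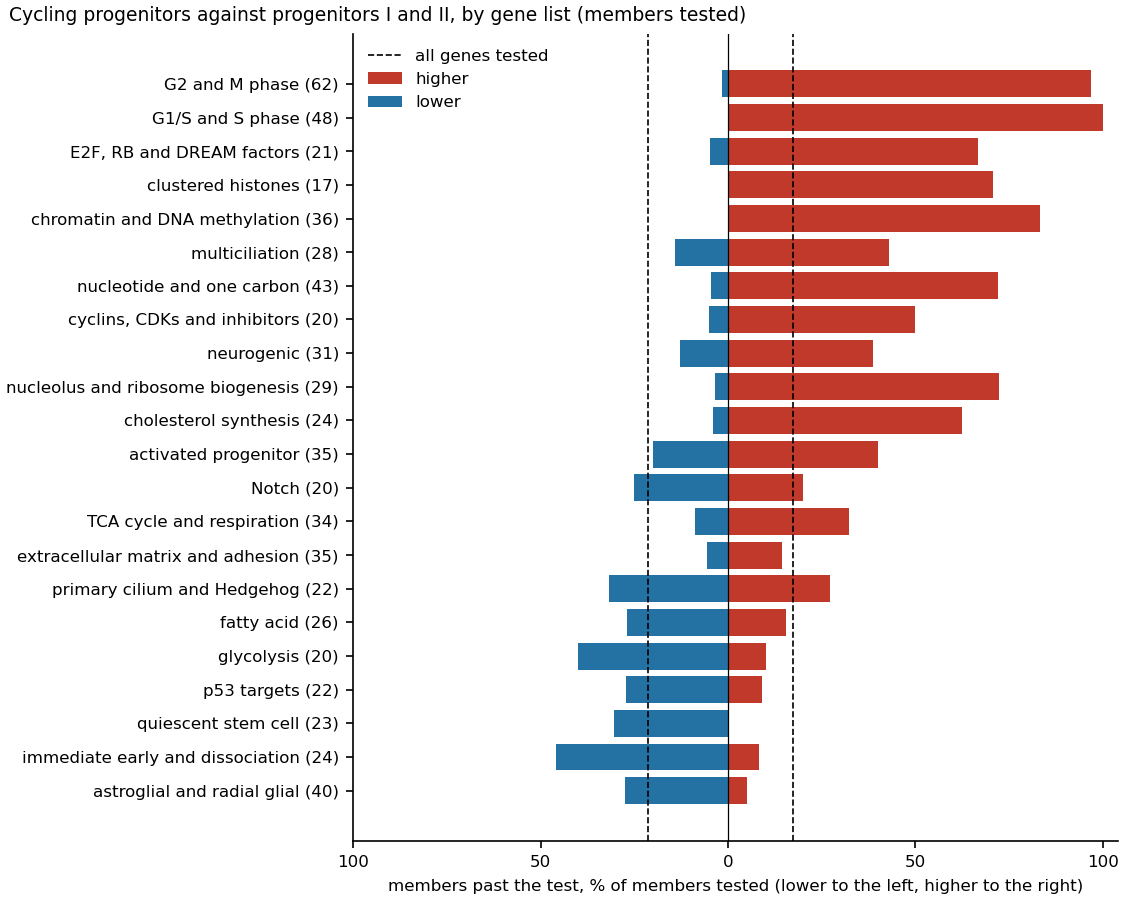
Members past the test as a share of the members tested in each of 22 gene lists (x axis, %, higher to the right in red and lower to the left in blue), with the number tested in brackets and lists in order of their median log2 fold change. Dashed lines mark the 17.4% of all genes called higher and the 21.3% called lower; cycle, chromatin, nucleotide, nucleolar and cholesterol lists reach far past the right line, and immediate early and glycolysis genes past the left.

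Of 40 astroglial and radial glial genes 11 were lower, 2 were higher and 27 did not pass. Together 32.5% were called, below the 38.6% of all genes, and their median was −0.53. Gfap, the intermediate filament of astrocytes and adult-type neural stem cells, had 272 and 251 CPM in cycling progenitors, 1042 and 1099 in progenitors I and 1011 and 1221 in progenitors II. All 4 other sums were above both cycling values, and the log2 fold change was −2.12 ± 0.57 (adjusted p = 0.0102). Aldoc, the astroglial aldolase, had 79.6 and 99.2 CPM in cycling progenitors, 253 and 323 in progenitors I and 218 and 293 in progenitors II (−1.67 ± 0.27, adjusted p = 2.6e-04). Hopx, a marker of quiescent stem cells and outer radial glia, had 27.3 and 31.0 CPM in cycling progenitors, 73.7 and 75.0 in progenitors I and 98.1 and 106 in progenitors II (−1.67 ± 0.27). Slc1a2, the glutamate transporter of astrocytes, chosen here after its values were seen, differed by −1.0 ± 0.15.

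Several other radial glial genes did not pass. Vim, an intermediate filament, had 7749.7 and 8372 CPM in cycling progenitors, 9767 and 10586 in progenitors I and 8921 and 9736 in progenitors II (−0.33 ± 0.33, adjusted p = 0.463). Slc1a3, the other astroglial glutamate transporter, had 555 and 642 CPM in cycling progenitors, 723 and 809 in progenitors I and 682 and 723 in progenitors II (−0.35 ± 0.41, adjusted p = 0.537). Sox9, a transcription factor of glial fate, had 354 and 353 CPM in cycling progenitors, 566 and 564 in progenitors I and 675 and 632 in progenitors II (−0.84 ± 0.42, adjusted p = 0.138). These 3 were below the other populations of their library in each case, but not beyond the spread that all cell groups share. With only the 3 progenitor populations in the fit all 3 passed, Vim at −0.26, adjusted p = 1.6e-07, Slc1a3 at −0.28, adjusted p = 9.1e-07 and Sox9 at −0.77, adjusted p = 9.6e-14 by edgeR's quasi-likelihood test. Sox9 also passed in thinned cells (−0.76, adjusted p = 0.00817). Nes, the filament of neural stem and progenitor cells, was higher, with 284 and 575 CPM in cycling progenitors, 181 and 386 in progenitors I and 192 and 374 in progenitors II (0.54 ± 0.13, adjusted p = 0.00376). Replicate 2 was above replicate 1 in all 3 populations for Nes, so that cycling progenitors of replicate 1 lay below both other populations of replicate 2. Without the library as a block the call was lost. Fabp7, the lipid-binding protein of radial glia, had 2749.6 and 3165 CPM in cycling progenitors, 1933 and 2192 in progenitors I and 822 and 909.9 in progenitors II. It was highest in cycling progenitors in both libraries, and the difference passed against progenitors II (1.75 ± 0.59, adjusted p = 0.0325) but not against progenitors I (0.42 ± 0.57, adjusted p = 0.627). Against the mean of both Fabp7 did not pass. By the same edgeR test it passed with only the 3 progenitor populations in the fit (1.16, adjusted p = 4.5e-19) and in thinned cells (1.21, adjusted p = 0.00253).

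Of the 23 genes listed for quiescent stem cells 7 were lower and 16 did not pass. The 30.4% called is below the 38.6% of all genes. Against progenitors I 9 were lower and 0 higher, together 39.1%, against 32.3% of all genes. Against progenitors II 4 were lower and 2 higher, together 26.1%, below the 37.9% of all genes. Klf9, which holds neural stem cells in quiescence, had 18.1 and 15.0 CPM in cycling progenitors, 32.7 and 29.8 in progenitors I and 38.2 and 27.8 in progenitors II (−1.0 ± 0.17, adjusted p = 6.0e-05). Foxo3, a transcription factor of the same state, had 17.5 and 21.8 CPM in cycling progenitors, 30.2 and 33.0 in progenitors I and 28.1 and 35.1 in progenitors II (−0.76 ± 0.11). The Id genes, targets of bone morphogenetic proteins that block neurogenic factors, separated the 2 reference populations instead. Id3 had 418 and 259 CPM in cycling progenitors, 988 and 815 in progenitors I and 270.1 and 236 in progenitors II. Its cycling values lay between progenitors I and II, nearer to progenitors II, with a difference of −1.54 ± 0.28 from progenitors I (adjusted p = 8.2e-04). Id1 had 353 and 294 CPM in cycling progenitors, 449.5 and 375 in progenitors I and 172 and 143 in progenitors II, closer to progenitors I, with a difference of 1.02 ± 0.21 from progenitors II (adjusted p = 0.00136).

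Of 20 Notch pathway genes 4 were higher and 5 lower, a share near the background on each side. Hey1, a Notch target that maintains stem cells, had 38.9 and 39.8 CPM in cycling progenitors, 75.6 and 80.9 in progenitors I and 61.6 and 70.6 in progenitors II (−0.93 ± 0.16, adjusted p = 1.3e-04). Numb, an inhibitor of Notch that dividing cells can pass to one daughter, differed by −0.73 ± 0.12, with 29.3 and 19.5 CPM in cycling progenitors against 36.2 to 43.3 CPM in the others. The log2 difference was −0.52 in replicate 1 alone and −0.90 in replicate 2 alone. Nrarp, a feedback inhibitor of Notch, was higher by 2.56 ± 0.32 at low levels of 4.99 and 6.78 CPM. Hes1 and Hes5, the classic Notch targets, did not pass (0.07 ± 0.18 and 0.61 ± 0.33) and differed far more between the libraries than between the populations, with 1.91 and 18.7 CPM for Hes5 in cycling progenitors.

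Genes of neurogenesis and of activated progenitors went both ways. Of 31 neurogenic genes 12 were higher and 4 lower. Against progenitors I 6 were higher and 2 lower, together 25.8%, below the 32.3% of all genes. Against progenitors II 12 were higher and 3 lower. Stmn1, a microtubule destabiliser that many dividing cells also express, differed by 2.49 ± 0.11. Dcx, the marker of migrating neuroblasts, was at only 2.55 and 2.26 CPM, and its difference of 1.53 ± 0.50 did not pass in cells thinned to 5000 UMIs. Among the 4 lower members, Sox4 had 186 and 190.3 CPM in cycling progenitors, 289.9 and 336 in progenitors I and 281 and 300.4 in progenitors II (−0.74 ± 0.17, adjusted p = 0.00197). Btg2, an antiproliferative gene, had 64.8 and 106 CPM in cycling progenitors, 112 and 218 in progenitors I and 127 and 236 in progenitors II (−1.04 ± 0.31), and did not pass in thinned cells or without the block.

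Of 35 genes listed for activated progenitors 14 were higher and 7 lower. Against progenitors I 8 were higher and 5 lower, and against progenitors II 18 were higher and 3 lower. Olig2, a transcription factor of transit-amplifying and oligodendrocyte precursor cells, had 21.6 and 33.3 CPM in cycling progenitors, 16.7 and 21.9 in progenitors I and 6.06 and 8.97 in progenitors II (1.11 ± 0.27, adjusted p = 0.00412). It was near progenitors I (0.37 ± 0.28, adjusted p = 0.341) and the call was lost with DESeq2. Pdgfra, the receptor of oligodendrocyte precursors, was at 2.55 and 4.72 CPM, and its difference of 2.35 ± 0.74 did not pass without the low count filter or with equal cell numbers. Egfr, the growth factor receptor by which activated stem cells are sorted, was lower, with 20.7 and 19.5 CPM in cycling progenitors, 28.5 and 35.7 in progenitors I and 23.9 and 26.0 in progenitors II (−0.52 ± 0.14, adjusted p = 0.00367). In thinned cells Egfr did not pass, and its log2 difference was −0.33 in replicate 1 alone and −0.62 in replicate 2 alone.

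Nucleotide synthesis was the metabolic group with the most calls. Of 43 genes of nucleotide and one-carbon metabolism 31 were higher, 2 lower and 10 did not pass. Without the 6 that are also on the S phase list, 25 of 37 were higher, with a median of 0.67. Tyms, thymidylate synthase, had 217 and 170.2 CPM in cycling progenitors, 14.1 and 9.74 in progenitors I and 13.4 and 10.5 in progenitors II (3.95 ± 0.17), and Rrm2, the cycle-regulated subunit of ribonucleotide reductase, differed by 5.18 ± 0.13. Beyond those, chosen after their values were seen, Shmt1 and Mthfd2, which supply one-carbon units, differed by 2.67 ± 0.24 and 2.83 ± 0.18. Umps and Cad, of pyrimidine synthesis, differed by 2.10 ± 0.11 and 0.95 ± 0.13. The 2 lower members were G6pdx (−0.44 ± 0.15) and Pgd (−0.31 ± 0.11), both of the oxidative pentose phosphate pathway, and neither passed in thinned cells. For G6pdx the log2 difference was −0.52 in replicate 1 alone and −0.14 in replicate 2 alone.

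Of 24 genes of cholesterol synthesis 15 were higher and 1 lower. Acat2, which makes acetoacetyl-CoA, had 32.3 and 30.4 CPM in cycling progenitors, 12.7 and 14.0 in progenitors I and 11.3 and 10.9 in progenitors II (1.31 ± 0.12, adjusted p = 2.3e-09). Fdps, farnesyl diphosphate synthase, had 110.3 and 119 CPM in cycling progenitors, 54.5 and 70.4 in progenitors I and 44.9 and 48.1 in progenitors II (1.03 ± 0.12) and Cyp51, a sterol demethylase, had 71.8 and 97.9 CPM in cycling progenitors, 40.3 and 59.8 in progenitors I and 31.5 and 44.7 in progenitors II (0.90 ± 0.12). For Cyp51 both cycling values were above the other 4. Sqle, the squalene epoxidase, was the lower member (−0.42 ± 0.15) and did not pass under 5 of the alternatives.

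Of 20 glycolytic genes 8 were lower and 2 higher. Against progenitors I 8 were lower and 1 higher, and against progenitors II 4 were lower and 5 higher. Pfkp, the platelet-type phosphofructokinase, had 67.6 and 71.7 CPM in cycling progenitors, 117 and 152 in progenitors I and 129 and 175 in progenitors II (−1.07 ± 0.12, adjusted p = 4.1e-08), and Pfkm, the muscle type, differed by −0.59 ± 0.12. The 2 higher members were Pgam1 (0.44 ± 0.08) and Tpi1 (0.45 ± 0.12), both of which lost the call without the block. Of 26 genes of fatty acid metabolism 7 were lower and 4 higher, near the background. Against progenitors I 8 were lower and 1 higher, and against progenitors II 4 were lower and 6 higher. Acadm, the medium-chain dehydrogenase of β-oxidation, had 204 and 172 CPM in cycling progenitors, 362 and 356 in progenitors I and 335 and 313 in progenitors II (−0.92 ± 0.12, adjusted p = 1.0e-06), with Acadvl, the very-long-chain enzyme, at −0.60 ± 0.10. The higher members were 3 elongases and the carrier Fabp5 (0.68 ± 0.17). Of 34 genes of the TCA cycle and respiration 11 were higher and 3 lower, led by Cycs, cytochrome c, with 75.8 and 104 CPM in cycling progenitors, 40.8 and 60.5 in progenitors I and 31.3 and 47.9 in progenitors II (0.96 ± 0.09) and Fh1, fumarate hydratase (0.64 ± 0.08). Ppargc1a, the coactivator of mitochondrial biogenesis, was lower (−0.54 ± 0.15), with −0.59 in replicate 1 alone and −0.28 in replicate 2 alone. The share of mitochondrial UMIs was 3.74% and 5.76% in cycling progenitors, against 4.70% and 6.70% in progenitors I and 4.53% and 6.15% in progenitors II.

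Of 29 nucleolar and ribosome biogenesis genes 21 were higher and 1 lower, with a median of 0.48. Nop56, a core protein of box C/D ribonucleoproteins, had 76.0 and 100 CPM in cycling progenitors, 28.1 and 36.9 in progenitors I and 29.4 and 37.8 in progenitors II (1.35 ± 0.09, adjusted p = 1.8e-12). Nop58, its partner, differed by 1.32 ± 0.08, and Srm, spermidine synthase, by 1.01 ± 0.14. Of 36 chromatin genes 30 were higher and 6 did not pass, and 27 of the 33 that are on neither cycle list. Ezh2, the methyltransferase of Polycomb complex 2, had 247 and 276 CPM in cycling progenitors, 33.3 and 38.5 in progenitors I and 36.7 and 43.2 in progenitors II (2.73 ± 0.10, adjusted p = 5.5e-18). Dnmt1, which copies DNA methylation after replication, had 143 and 165 CPM in cycling progenitors, 21.0 and 20.7 in progenitors I and 20.7 and 22.0 in progenitors II (2.79 ± 0.13), its recruiter Uhrf1 differed by 5.10 ± 0.15, and Lmnb1, lamin B1, by 3.84 ± 0.11. None of these genes overlapped between the groups, a trait that was not counted over all genes.

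Of 24 immediate early and dissociation genes 11 were lower and 2 higher. Junb, an AP-1 subunit, had 48.5 and 98.8 CPM in cycling progenitors, 120.1 and 259 in progenitors I and 103 and 243 in progenitors II (−1.33 ± 0.25, adjusted p = 7.3e-04), and cycling values were the lowest of each library, while replicate 2 was above replicate 1 in every population. The 2 higher members were the chaperones Dnajb1 (0.67 ± 0.11) and Hsp90aa1 (0.73 ± 0.17), the latter with 0.96 in replicate 1 alone and 0.60 in replicate 2 alone. Of 22 p53 target genes 6 were lower and 2 higher, near the background. Against progenitors I 5 were lower and 2 higher. Against progenitors II 12 were lower and 1 higher, above the 20.9% of all genes. Bbc3, the apoptosis gene Puma, had 14.0 and 8.42 CPM in cycling progenitors, 25.1 and 23.3 in progenitors I and 35.1 and 32.6 in progenitors II (−1.34 ± 0.17, adjusted p = 9.8e-07), with a log2 difference of −1.07 in replicate 1 alone and −1.65 in replicate 2 alone. Sesn1, a stress-responsive regulator of mTORC1, differed by −0.95 ± 0.12.

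Of 28 genes listed for multiciliation 12 were higher and 4 lower (Gmnc, Rfx2, Rfx3 and Rfx4). The higher ones included Plk4, the kinase that starts centriole duplication in any cycling cell, with 81.8 and 90.3 CPM in cycling progenitors, 5.51 and 7.67 in progenitors I and 9.48 and 8.21 in progenitors II (3.43 ± 0.17), its partner Stil (4.31 ± 0.27) and, chosen after its values were seen, Sass6, the cartwheel protein (2.25 ± 0.11). Gmnc, which commits cells to multiciliation, had 14.9 and 14.4 CPM in cycling progenitors, 21.3 and 16.5 in progenitors I and 47.5 and 40.6 in progenitors II (−1.06 ± 0.15, adjusted p = 5.3e-06). It differed from progenitors II by −1.63 ± 0.16 and from progenitors I by −0.49 ± 0.17. Rfx3, a factor for ciliary genes, differed by −0.94 ± 0.20. Mcidas, which acts after Gmnc, was at 2.65 and 0.616 CPM, and its difference rested on replicate 1: 1.92 in replicate 1 alone and 0.33 in replicate 2 alone. Foxn4, another transcription factor of multiciliation, passed as higher (adjusted p = 0.0325) on 8 UMIs in replicate 1 and 0 in replicate 2. Foxj1 did not pass (−0.56 ± 0.38), and Deup1, the deuterosome gene, had 30.7 and 17.0 CPM in cycling progenitors, 10.8 and 8.73 in progenitors I and 33.3 and 27.1 in progenitors II, above progenitors I (1.23 ± 0.25, adjusted p = 1.0e-03). Of 22 primary cilium and Hedgehog genes 6 were higher and 7 lower, the lower ones including Gas1, a Hedgehog co-receptor first named for growth arrest (−1.0 ± 0.29). Against progenitors I 5 of the 22 were higher and 2 lower, and against progenitors II 5 and 8. Of 35 extracellular matrix genes 5 were higher and 2 lower, both below the background. Against progenitors I 5 were lower, and against progenitors II 8 were higher and 2 lower.

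Over all genes tested, the 8 lowest genes whose mean log2 CPM was 5 or more were Tcp11l2, Gfap, Cntf, Neat1, Elobl, Crebrf, Omd and Pik3ip1. Tcp11l2 had 36.2 and 21.8 CPM in cycling progenitors, 124 and 119 in progenitors I and 177 and 168 in progenitors II (−2.35 ± 0.25). Cntf, ciliary neurotrophic factor, had 27.2 and 23.4 CPM in cycling progenitors, 91.4 and 92.6 in progenitors I and 102 and 103 in progenitors II (−2.01 ± 0.28). Pik3ip1, a negative regulator of PI3 kinase, had 27.2 and 22.4 CPM in cycling progenitors, 73.8 and 79.7 in progenitors I and 80.7 and 88.7 in progenitors II (−1.73 ± 0.14), and Omd, osteomodulin, had 44.6 and 39.6 CPM in cycling progenitors, 147 and 131 in progenitors I and 148 and 123 in progenitors II (−1.76 ± 0.18). Neat1, the long noncoding RNA of paraspeckles, had 28.3 and 57.3 CPM in cycling progenitors, 90.7 and 201 in progenitors I and 119 and 259 in progenitors II (−1.99 ± 0.28). For each of these 5 both cycling values were below all 4 others, which adds no support, since the genes were picked as the lowest of this comparison.

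Progenitors I and II themselves differed in 1139 genes (7.17%; 4.45% higher and 2.73% lower in progenitors II), and cycling progenitors took the side of progenitors I in most of the genes that set them apart by at least 2-fold. Among 116 such genes higher in progenitors II, outside the cycle lists, the cycling level was nearer to progenitors I in both libraries for 81, nearer to progenitors II in both for 9, and split for 26. Among 8 higher in progenitors I it was nearer to progenitors I for 5, nearer to progenitors II for 2 and split for 1. Olig1 was of the first kind, with 106 and 186 CPM in cycling progenitors, 112 and 160.3 in progenitors I and 44.2 and 66.1 in progenitors II, and Scrg1 of the second, with 27.2 and 21.6 CPM in cycling progenitors, 67.1 and 64.7 in progenitors I and 29.2 and 29.1 in progenitors II. The 116 include axonemal dyneins such as Dnah5 and Dnah9. Dnah5, at 5.33 to 26.8 CPM in the 3 populations, reached the required mean level only through other cell groups. So did many more of the 116, such as Hydin (2.18 to 13.7 CPM) and Ccdc180 (1.29 to 10.6 CPM). The numbers 116 and 8, and the counts nearer to each population, thus depend on that filter and do not stand for all genes that differ. These counts use the same libraries for choosing and for placing the genes, so they carry no test.

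The cells of class G0 or G1 alone were also compared with progenitors I and II of class G0 or G1. This used 173 and 86 cycling progenitors. The mix of the 2 classes was not alike: 110 and 49 of the cycling progenitors were of class G1, against 26 and 8 cells of progenitors I and 11 and 3 of progenitors II. Of 15454 genes 1355 were higher (8.77%) and 2099 lower (13.6%), together 22.4%, with a median over all genes of −0.17. RLE size factors moved this median to −0.10 and gave 51.2% of calls as higher in place of 39.2%, so the share of lower calls depends on the scaling. Leaving out classes S, S/G2 and G2/M did not remove cycle transcripts. All 48 S phase genes were again higher (median 3.17), with summed levels of 6272 and 6079 CPM against 6632 and 7101 CPM in classes S, S/G2 and G2/M. Of the G2 and M list 56 of 62 were higher (median 3.17), and their summed level was 5682 and 5771 CPM against 24154 and 25576 CPM. Outside the lists the leading genes were still cycle genes: Pclaf (7.69 ± 0.40), Esco2 (6.22 ± 0.30), Spc24 (5.38 ± 0.29), Cenpm (5.14 ± 0.22) and Knstrn (4.62 ± 0.43), of replication, cohesion, kinetochore and spindle.

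Cdkn2c did not pass in this comparison, at 0.03 ± 0.13 (adjusted p = 0.899). Class G0 alone gave −0.60 (adjusted p = 0.111) and class G1 alone 0.43 (adjusted p = 0.0242). Cdkn1a passed in the joint comparison, at −1.38 ± 0.25 (adjusted p = 0.00103). Cdkn1b differed by −0.52 ± 0.11, with −0.29 in replicate 1 alone and −0.49 in replicate 2 alone. Of the 22 p53 targets 14 were lower and 8 did not pass, with a median of −0.74. By DESeq2 12 were lower, and in cells thinned to 5000 UMIs 2 of 20 were. Within the population Cdkn1a had 102 and 120.4 CPM in class G0, 62.3 and 35.6 in G1, 102 and 119 in S and 181 and 146 in S/G2. Among these classes, which leave out G2/M, the lowest Cdkn1a level was thus in class G1 in both libraries. Ccng1, another p53 target, chosen after its values were seen, differed by −0.79 ± 0.15.

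Many genes outside the cycle passed the test in these cells as well. Gfap differed by −1.71 ± 0.47 (adjusted p = 0.0188), although the call was lost with equal cell numbers, without the block, in class G1 alone and without cells holding precursor markers. Aldoc differed by −1.37 ± 0.26 and Hopx by −1.10 ± 0.30, the latter lost under 6 of the alternatives. Omd (−1.49 ± 0.19), Cntf (−1.50 ± 0.31), Pik3ip1 (−1.27 ± 0.16), Klf9 (−1.02 ± 0.22) and Pfkp (−1.09 ± 0.12) were lower, and Fdps (0.88 ± 0.14), Acat2 (1.14 ± 0.18), Nop56 (1.40 ± 0.12), Srm (1.41 ± 0.18), Ezh2 (2.13 ± 0.12) and Dnmt1 (2.77 ± 0.18) were higher. Of the nucleotide list 26 of 43 were higher, of the nucleolar list 20 of 29 were higher and 1 lower, and of the chromatin list 28 of 36 were higher. Of the cholesterol list 5 of 24 were higher, and 10 by DESeq2. Olig2 (0.83 ± 0.42) and Egfr (−0.20 ± 0.18) did not pass, and neurogenic genes had 2 higher and 4 lower of 31. Whether the 2 comparisons differ from each other was not tested.

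**Figure D5:**
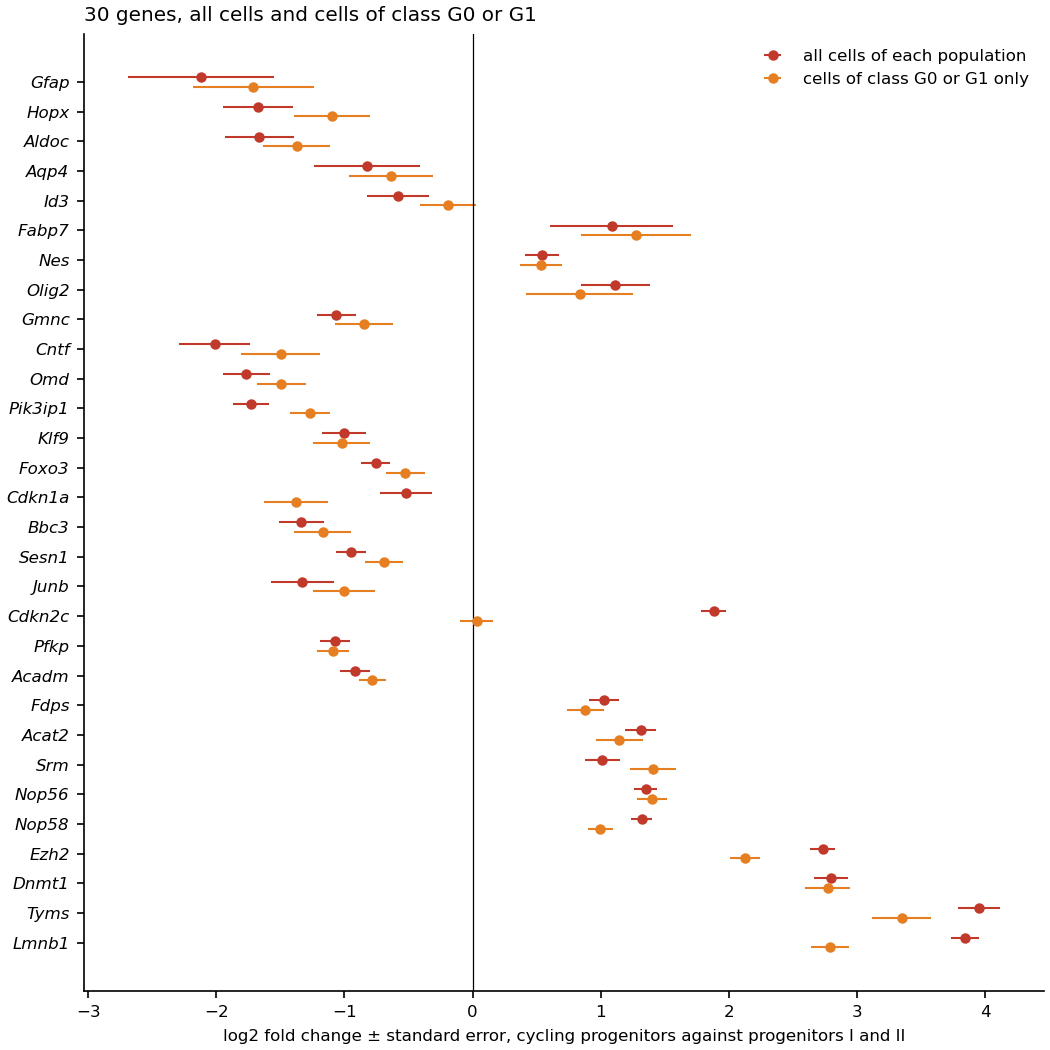
Log2 fold change with its standard error (x axis) for 30 genes in cycling progenitors against progenitors I and II, using all cells (red) or only cells of class G0 or G1 (orange). In class G0 or G1 Cdkn2c lies near 0 (0.03), with −0.60 in class G0 and 0.43 in class G1 alone, and Cdkn1a below it (−1.38), while most glial, metabolic and chromatin genes are on the same side in both.

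The 2 classes were also fitted apart, in an alternative added after seeing the data. Class G1 alone gave 1923 higher and 1381 lower genes, and class G0 alone, with 63 and 37 cells, 281 higher and 171 lower of 15138. In class G0 Mcm2 differed by 1.86 (adjusted p = 8.4e-04) and Mki67 by 4.70 (adjusted p = 0.00424), against 4.02 and 6.08 in class G1. Some mitotic genes, chosen here after their values were seen, differed more in class G0. Ccnb2 differed by 6.41 and Knstrn by 5.50 there, against 4.50 and 4.01 in class G1. Gfap differed by −2.20 (adjusted p = 0.0364), Aldoc by −1.53 (adjusted p = 0.0203) and Omd by −1.56 (adjusted p = 0.00138) in class G0. Gfap and Aldoc were thus also lower in the cells with the fewest cycle transcripts. Pik3ip1 (−0.39, adjusted p = 0.339), Cntf (−1.30, adjusted p = 0.117) and Cdkn1a (−0.74, adjusted p = 0.231) did not pass there. Nor did Klf9 (−0.04, adjusted p = 0.977), Fdps (0.13, adjusted p = 0.863) and Acat2 (0.59, adjusted p = 0.396), against −1.83, 1.30 and 1.52 in class G1. Nop56 (0.82), Srm (1.11), Ezh2 (0.84), Dnmt1 (1.31) and Pfkp (−1.08) passed in class G0. Of 22 p53 targets 0 passed edgeR's test in class G0, and 5 were lower at an unadjusted p under 0.05, while 14 were lower and 1 higher in class G1. Gfap by class, with G2/M left out, had 264 and 243 CPM in G0, 458 and 378 in G1, 321 and 269 in S and 172 and 192 in S/G2. All of these were below the 1011 to 1221 CPM of progenitors I and II.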

How the data were processed

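The deposited files hold raw counts, whole numbers of UMIs per gene and cell for 32287 genes, with a table of cell metadata that gives each cell's population and cell cycle class. Per the submitters' processing notes the authors used Cell Ranger 3 and 5.0.1 and the mouse build mm10. For the population names, the classes and doublets no method is stated in the sources used here. No doublet caller was run. Every deposited cell was used: the lowest held 2502 UMIs and the highest mitochondrial share was 9.99%.

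Counts were summed per population and library. Fibroblasts, with under 20 cells in replicate 1, were left out, and 13 cell groups (12 named populations and the cells without a population name) entered 1 edgeR 4.0.16 fit (R 4.3.3, TMM normalization, edgeR's filter on low counts, quasi-likelihood test, Benjamini-Hochberg adjustment over all genes tested, 12 residual degrees of freedom), with library as a block because populations of a library share their source. Library deviations of the 3 progenitor populations correlated at 0.439 to 0.647 across genes, and the median over all 78 pairs of cell groups was 0.184. Fold changes are edgeR's estimates and differ from ratios of the CPM values, which are scaled to the summed library without TMM. The fit on cells of class G0 or G1 used the same design. The precision is limited by 2 libraries. The procedure was tested on simulated counts.

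Members and gene lists were chosen with earlier results of these data known. Genes are named when they were the 3 highest or 3 lowest called members of a list, belonged to a fixed list of 44 genes, or were among the 8 highest or lowest called genes with a mean log2 CPM of 5 or more (predicted, mitochondrial and ribosomal protein genes left out, and for the comparison of classes G0 and G1 also cycle list members). Not all of these genes are described. Promoter sequences are RefSeq's. Alternatives were RLE size factors, DESeq2 1.42.0, no filter, no block, only the 3 populations in the fit, cells thinned to 5000 UMIs, the deepest 5% of cells left out, equal cell numbers and, added after seeing the data, the removal of cells with 2 or more precursor markers and each class alone.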

Additional observations from a re-analysis of the deposited data

How the results depend on the processing

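With the library dropped from the fit (no replicate block), cycling progenitors had 1662 genes higher and 1160 lower than progenitors I and II, 1272 and 646 against progenitors I, 1460 and 1188 against progenitors II, and 822 and 612 among cells of class G0 or G1. In cells thinned to 5000 UMIs 2024, 1787, 2031 and 612 genes were lower in these 4 comparisons. With equal cell numbers 1727 were lower than in progenitors I, 2113 than in progenitors II and 693 among cells of class G0 or G1. With only the 3 populations in the fit 3684 were higher than in progenitors I and 2382 among cells of class G0 or G1. The count of lower genes among cells of class G0 or G1 was 1187 with no low count filter and 1189 without cells holding precursor markers. Class G0 alone gave 281 higher and 171 lower, and class G1 alone gave 1381 lower. The other counts stayed within 1.5 times. Fewer cells or UMIs enter the thinned, equal-number and single-class fits, and the cause of the other shifts was not tested.

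Of 22 lists, none was tested as a list. Of the 150 named genes called against progenitors I and II, none changed direction under these alternatives. Without the block 37 lost the call, in thinned cells and with equal cell numbers 16 each, with DESeq2 14 and without cells holding precursor markers 9. Of 117 called among cells of class G0 or G1 80 lost the call in class G0 alone, 35 without the block and 31 in thinned cells. Of 21 named genes that did not pass against progenitors I and II, 12 passed with only the 3 populations in the fit and 8 in thinned cells, and of 52 among cells of class G0 or G1 17 and 3 did. In class G0 alone Sox4 (0.19), E2f2 (−3.69), Fbxo5 (−0.90) and Aurka (−0.49) changed sign among cells of class G0 or G1, none of them past the test there. Leaving out either library leaves no residual degrees of freedom, so single-library differences have no test. Cycling progenitors were 5.27% and 6.28% of cells that have a population name, and with classes G0 and G1 not counted 2.88% and 3.50% of all cells. The 25 cells of class G2/M, 17 and 8, limit what can be said of mitosis itself.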

Other observations

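The 2 libraries of cycling progenitors differed from each other in a limited set of genes. Of 9849 genes with at least 100 UMIs, 144 (1.46%) differed by more than 2-fold, and the median absolute log2 difference was 0.20. Xist, the RNA of the inactive X chromosome, had 0.424 and 252 CPM in replicate 1 and replicate 2. Fos had 147 and 643 CPM, Socs3, an inhibitor of cytokine signalling, 16.6 and 97.9, Hes1 31.6 and 95.1 and Hes5 1.91 and 18.7. In the other direction the predicted gene Gm42031 had 23.3 and 0.616 CPM and Gstp1, a glutathione transferase, 43.0 and 9.03. These genes were chosen after their values were seen. The sex of the animals, which Xist tracks, may differ between the libraries too. Substrain, library and any such difference cannot be told apart.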
